A study of Homo sapiens with 24 samples.

Results

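ATF3, ATF4, DDIT3, TRIB3, CHAC1, DDIT4, SESN2, PPP1R15A, CEBPB and CEBPG are transcription factors and effectors of the integrated stress response. They were taken by symbol as 10 of the 57820 rows of a table of normalised counts, and all 10 were among the 17860 genes tested. The table covers messenger RNA of 24 libraries from SNU1079 and RBE, lines grown from human bile duct cancers (cholangiocarcinoma) that the labels give as IDH1 mutant with high SULT1A1. The cells had been given YC-1, a small molecule that stimulates soluble guanylate cyclase, or the solvent DMSO. The 8 groups of 3 libraries were SNU1079 with YC-1 for 16 h, SNU1079 with DMSO for 16 h, SNU1079 with YC-1 for 6 h, SNU1079 with DMSO for 6 h, and the same 4 groups of RBE. The submitters call the libraries of a group biological replicates. No dose is stated, and each line stands for a single tumour. A separate time label contradicts the sample titles, since it gives 16 h for every DMSO library and 6 h for every YC-1 library. The titles were used here with the design text; if that label held, treatment and time could not be told apart in any comparison of YC-1 with DMSO and there would be no comparison between times. With the titled times pooled within each line and treatment, 10 of the 10 genes differed in SNU1079 and 9 in RBE (limma, adjusted p under 0.05). In the same fit, 8465 of the 17860 genes differed in SNU1079 and 8282 in RBE.

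In the integrated stress response, kinases that sense misfolded protein, amino acid shortage, haem shortage or double-stranded RNA phosphorylate the initiation factor eIF2. General translation slows, while the ATF4 messenger RNA, which carries upstream open reading frames, is translated better. ATF4 protein pairs with factors such as CEBPB and CEBPG on composite C/EBP and ATF elements and switches on genes that include DDIT3 (which encodes CHOP), ATF3, TRIB3, CHAC1, SESN2 and PPP1R15A.

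Values are the authors' normalised counts, in which libraries are scaled to each other. Changes are differences of log2(normalised count + 1), a scale that understates the change of low genes, given with their standard error (SE). A gene was called when limma's moderated test gave a Benjamini-Hochberg adjusted p under 0.05 over all genes tested. Normalised counts summed to 20430000 to 27010000 per YC-1 library and 19010000 to 21580000 per DMSO library. The bile duct markers KRT7, KRT19, SOX9 and EPCAM were present in all 24 libraries, with summed levels of 39742 to 98152 with YC-1 and 31147 to 67959 with DMSO. The hepatocyte markers ALB and APOA1 reached at most 10.4 and 4.75, and the 4 leukocyte markers summed to 0 to 62.6 with YC-1 and 0 to 7.41 with DMSO. The hepatocyte list as a whole summed to 1213 to 2172 with YC-1 and 1136 to 1336 with DMSO, nearly all of it SERPINA1, and the stromal list to 70.8 to 3270.4 with YC-1 and 47.3 to 3857 with DMSO, nearly all of it COL1A1 where it was high. The SNU1079 libraries YC-1 16 h replicates 2 and 3, YC-1 6 h replicate 1 and DMSO 16 h replicate 1 stood furthest from their group means (standard deviations over all genes of 0.567, 0.567, 0.562 and 0.587 on the log2 scale). The SNU1079 YC-1 16 h libraries held 18.1%, 3.38% and 22.1% of their signal in mitochondrially encoded genes, against 6.02% to 8.50% in the SNU1079 DMSO 16 h libraries. For RBE at 16 h this share was 15.4% to 17.0% with YC-1 and 7.67% to 8.18% with DMSO. The part of these shares and markers in the results was not tested. In bulk RNA, fewer cells of a kind and less RNA per cell cannot be told apart.

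YC-1 raised 9 of the 10 genes in all 4 comparisons, and ATF4 messenger RNA was the exception. For SNU1079 at 16 h, 10 of 10 were called higher, where 28.7% of all genes were called higher, 25.8% lower and 54.5% in either direction. For SNU1079 at 6 h, 10 of 10 were again higher, against 14.0% of all genes higher, 14.2% lower and 28.2% in either direction. For RBE at 16 h, 9 were higher and ATF4 was lower, against 27.3% of all genes higher, 26.6% lower and 53.9% in either direction. For RBE at 6 h, 9 were higher and ATF4 did not pass, against 11.6% of all genes higher, 12.4% lower and 24.0% in either direction. All 3 YC-1 libraries lay above all 3 DMSO libraries for 9 genes in SNU1079 at 16 h (26.8% of all genes), 10 in SNU1079 at 6 h (20.1%), 9 in RBE at 16 h (35.6%, and 33.5% below, as ATF4 was) and 9 in RBE at 6 h (23.5%). The median log2 difference of the 10 genes, beside that of all genes tested, was 1.42 beside 0.06 (SNU1079, 16 h), 1.91 beside 0.01 (SNU1079, 6 h), 1.32 beside 0.02 (RBE, 16 h) and 1.79 beside 0 (RBE, 6 h). Among the highest 5% of all fold changes were 4 of the 10 genes in SNU1079 at 16 h and 7 at 6 h, and 3 in RBE at 16 h and 8 at 6 h. Without 3 of the SNU1079 libraries that stood apart (YC-1 16 h replicate 2, YC-1 6 h replicate 1 and DMSO 16 h replicate 1), 10 genes were called in SNU1079 at 16 h and 10 at 6 h. The SNU1079 library YC-1 16 h replicate 3 was kept, although it stood as far from its group mean as replicate 2. With libraries scaled to ribosomal protein genes, the calls of TRIB3 (0.063), CHAC1 (0.46), DDIT4 (0.14) and CEBPG (0.38) in RBE at 16 h and of DDIT4 (0.25), CEBPG (0.30) and ATF4 (-0.19, adjusted p = 0.0761) in SNU1079 at 16 h were lost, which left 6 called in RBE and 7 in SNU1079. In RBE, ATF4 was among the 6 called, as a fall (-1.31). This scaling moved the median of all genes at 16 h by -0.82 in RBE and -0.46 in SNU1079. Over all refits, calls over all genes were 6865 to 10331 in SNU1079 at 16 h and 3299 to 8465 at 6 h. In RBE at 16 h they were 8282 to 11918.

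**Figure D1:**
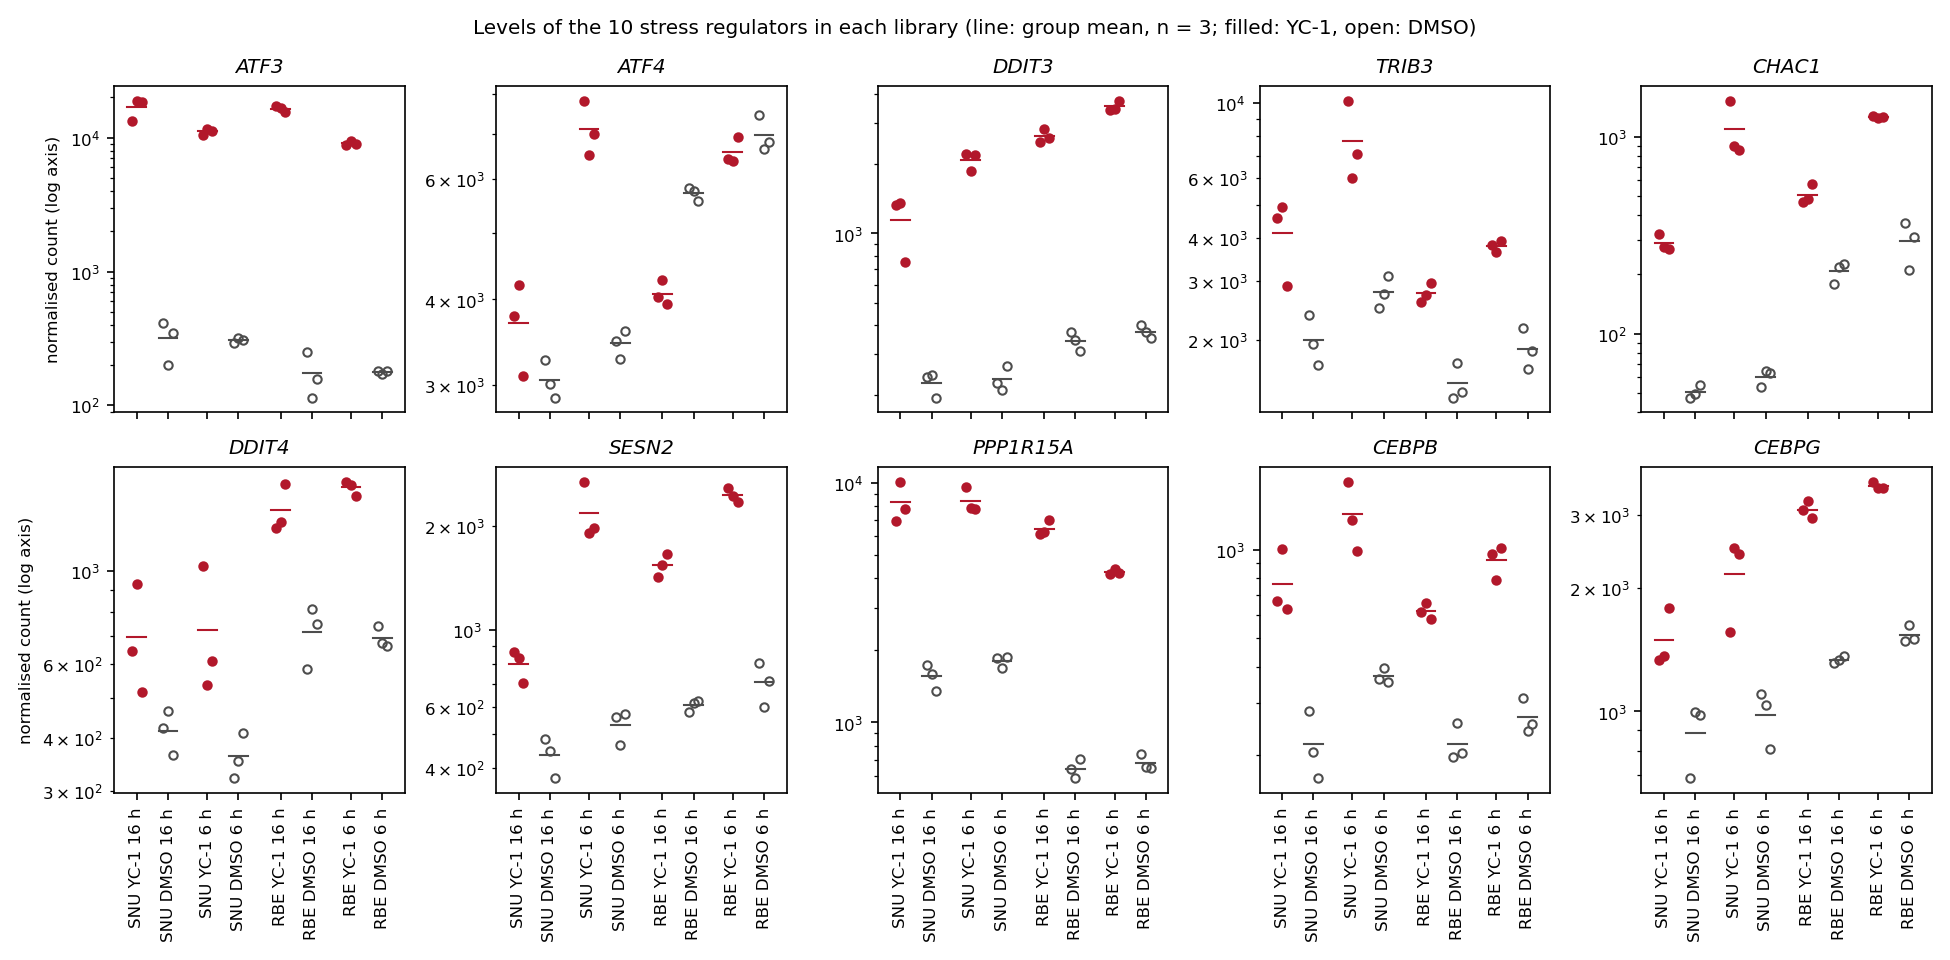
Normalised count (log axis) of each of the 10 genes in every library, with YC-1 libraries filled, DMSO libraries open and a line at the group mean (n = 3). YC-1 libraries lie above DMSO libraries of the same line and time for 9 genes, while for ATF4 the groups overlap in SNU1079 at 16 h and RBE at 6 h and YC-1 lies lower in RBE at 16 h.

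**Figure D2:**
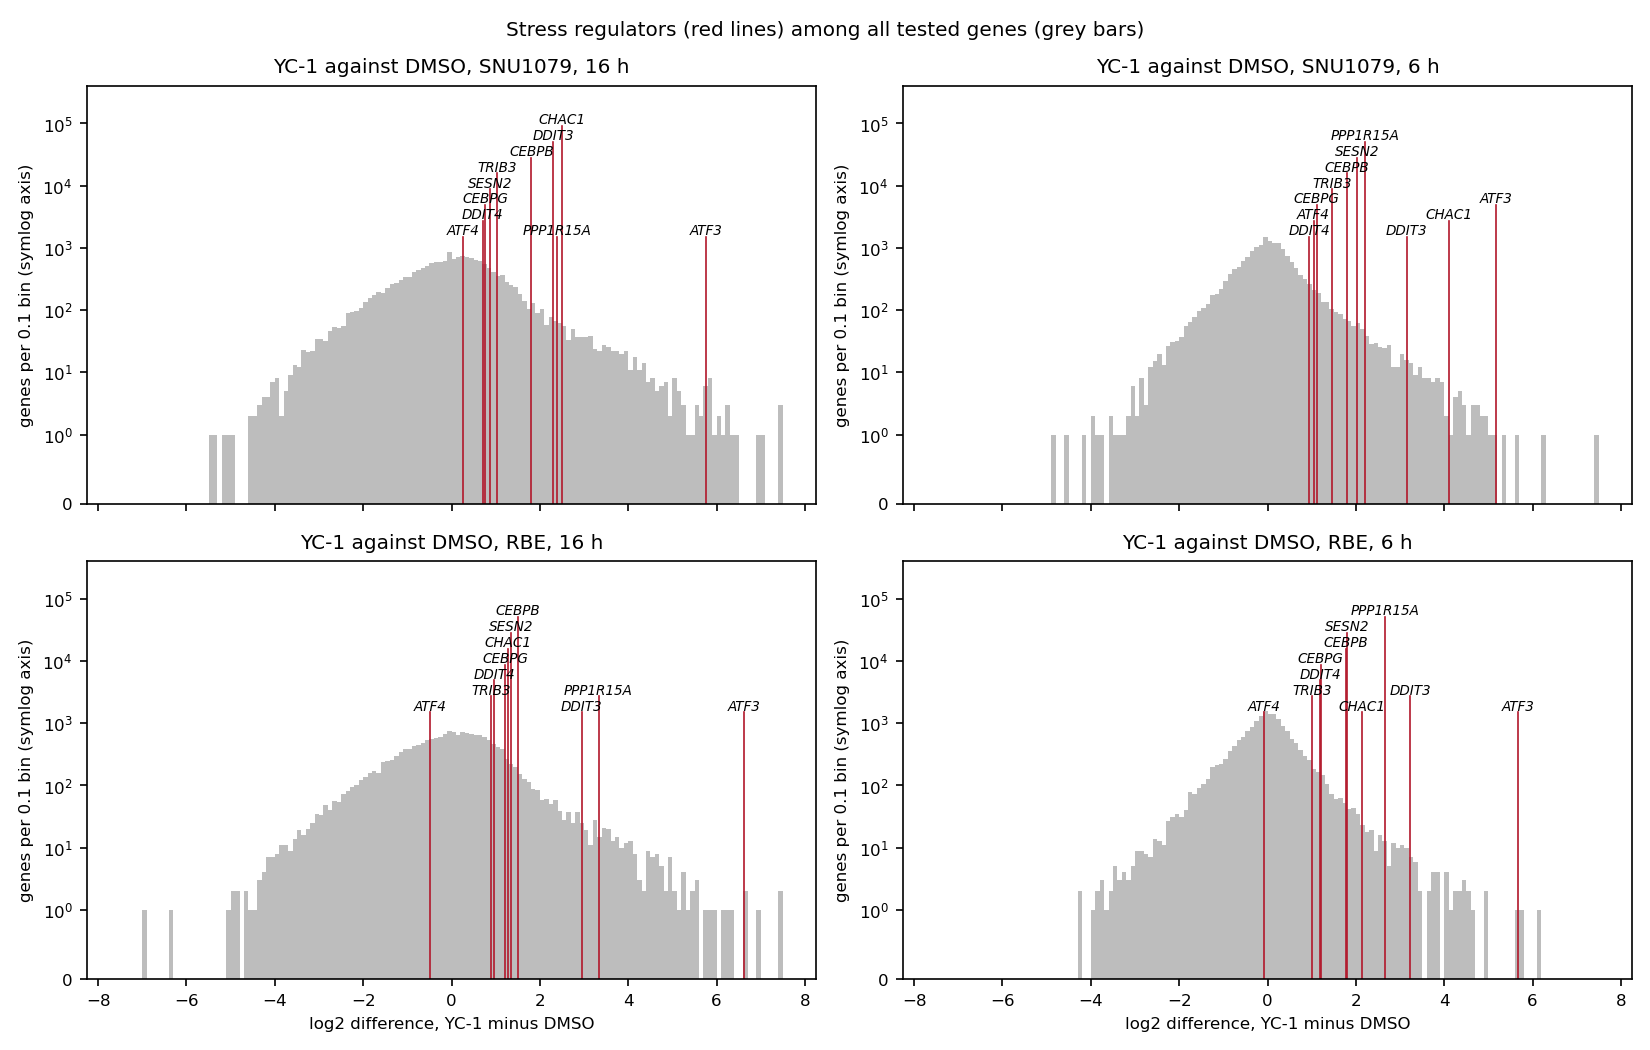
Number of the 17860 tested genes per 0.1-wide bin of the log2 difference between YC-1 and DMSO (grey; count axis linear near 0 and logarithmic above), with a red line at each of the 10 genes. ATF3 lies far to the right in all 4 comparisons (5.18 to 6.63) and ATF4 nearest to 0 in 3 of them.

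Promoter windows, from 250 bases before to 50 bases after RefSeq transcript starts (GRCh38.p14, all 10 genes matched), were searched on both strands for the letters of known response elements. The C/EBP and ATF response element TGATGNAA was present in at least 1 window for 3 of the 10 genes and for 4.46% of all 27305 genes with windows. The cAMP response element TGACGTCA was present for 1 of the 10 and for 2.25% of genes. The endoplasmic reticulum stress element was present for 0 of the 10 and for 0.0916% of genes. A gene with several windows has more chances to match, and the 10 genes had 17 windows. A match describes letters and is not a binding site, and elements outside these windows were not searched. The 3 matches of the C/EBP and ATF element are printed, with the matched letters in capitals. Their genes rose in every comparison, as did the genes without such a match other than ATF4. The printed matches are plus-strand sequences at chr1:212565205-212565234 (ATF3), chr19:33374060-33374089 (CEBPG) and chr15:40953251-40953280 (CHAC1, matching on the reverse strand, in annotated exon sequence).
ATF3: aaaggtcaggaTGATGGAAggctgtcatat
CEBPG: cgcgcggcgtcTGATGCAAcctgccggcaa
CHAC1: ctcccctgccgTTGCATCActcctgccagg
The PPP1R15A promoter (plus strand, chr19:48872171-48872391, 221 bases with 0 annotated exon bases) is printed because this gene varied most like ATF3 among the 10, and its capitals mark the cAMP response element.
PPP1R15A: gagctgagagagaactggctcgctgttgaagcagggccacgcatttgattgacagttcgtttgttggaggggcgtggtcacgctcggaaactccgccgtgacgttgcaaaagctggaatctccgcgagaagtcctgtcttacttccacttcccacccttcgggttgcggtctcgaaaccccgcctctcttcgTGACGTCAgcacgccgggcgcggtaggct

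ATF4 (ENSG00000128272, chr22:39519695-39522685, plus strand, GENCODE 29 on GRCh38) encodes the central factor of the response, and its messenger RNA rose in SNU1079 and fell in RBE at 16 h. It stood at 3787, 4207 and 3090.0 in SNU1079 with YC-1 for 16 h, against 3265, 3005 and 2873 with DMSO. These groups overlapped, and the log2 difference was 0.27 ± 0.10 (adjusted p = 0.0244). At 6 h SNU1079 had 7816, 6520.2 and 6995 with YC-1, against 3476, 3277 and 3593 with DMSO. Every YC-1 library was higher there, by 1.04 ± 0.10 (adjusted p = 7.15e-08). RBE at 16 h had 4028, 4268 and 3945 with YC-1, against 5817, 5759 and 5582 with DMSO. Every YC-1 library was lower, with a difference of -0.49 ± 0.10 (adjusted p = 0.000241). RBE at 6 h had 6421, 6389 and 6912 with YC-1, against 7460.4, 6650.2 and 6793 with DMSO. The groups overlapped, and the difference was -0.08 with a 95% interval of -0.29 to 0.12 (adjusted p = 0.612). With both times pooled, the RBE difference of ATF4 was not called (-0.29, adjusted p = 0.22). This fit mixes the 6 h effect with that at 16 h. It was the 1 of 39 refits without the RBE call at 16 h. The SNU1079 call at 16 h was lost in 4 of 24 single-library removals, among them YC-1 replicate 2 (0.17, adjusted p = 0.149), and its sign turned when libraries were scaled to equal sums (-0.094) or to ribosomal protein genes (-0.19). At the same 0.27 it was also lost with only the SNU1079 libraries fitted (adjusted p = 0.109) and with only the 2 groups compared (adjusted p = 0.206). Reads can be shared with processed pseudogenes, and ATF4P1, ATF4P3 and ATF4P4 had group means of at most 3.71, 2.55 and 3.12.

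ATF3 (ENSG00000162772, chr1:212565334-212620777, plus strand), a stress-induced bZIP factor that often represses, had the highest fold change of the 10 in all 4 comparisons. SNU1079 at 16 h had 13302, 18844 and 18355 with YC-1, against 416, 199 and 348 with DMSO. Its log2 difference was 5.76 ± 0.22 (adjusted p = 7.11e-14), and the group means differed 52.5-fold. SNU1079 at 6 h had 10533, 11639 and 11203 with YC-1, against 293, 317 and 308 with DMSO (5.18 ± 0.22, adjusted p = 9.81e-13). In no pair of groups did a YC-1 library come near a DMSO library. For RBE at 16 h the counts were 17329, 16738 and 15449 with YC-1, against 251, 114 and 159 with DMSO (6.63 ± 0.22, adjusted p = 5.99e-15), a 94.5-fold difference of group means. For RBE at 6 h they were 8793, 9428 and 8984 with YC-1, against 181, 171 and 181 with DMSO (adjusted p = 1.65e-13). Counted from the highest fold change of the 17860 genes, ATF3 was number 24 in SNU1079 at 16 h, 5 in SNU1079 at 6 h, 5 in RBE at 16 h and 3 in RBE at 6 h.

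DDIT3 (ENSG00000175197, chr12:57516588-57521737, minus strand) encodes CHOP, a C/EBP relative linked to cell death under lasting stress. SNU1079 at 16 h had 1331, 1357 and 752 with YC-1, against 239, 243 and 195 with DMSO (2.30 ± 0.17, adjusted p = 4.53e-10). SNU1079 at 6 h had 2212, 1863 and 2178 with YC-1, against 225, 209 and 268 with DMSO (3.15 ± 0.17, adjusted p = 1.84e-11). The groups were apart at both times, and YC-1 16 h replicate 3 was well below its mates. RBE at 16 h had 2499, 2820.3 and 2583 with YC-1, against 374, 345 and 309 with DMSO (2.94 ± 0.17, adjusted p = 1.14e-11). RBE at 6 h had 3422, 3465 and 3752 with YC-1, against 401, 375 and 352 with DMSO (adjusted p = 1.42e-11). All RBE libraries with YC-1 were above those with DMSO. DDIT3 shares 355 exon bases with MARS and 58 with MBD6 on the opposite strand, and 105 on the same strand with AC022506.1, which was not analysed here, and the strand setting of the counting is not given in the sources used here, so reads there cannot be told apart. MARS had group means of 3346 with YC-1 and 2124 with DMSO in SNU1079 at 16 h, and 6157 with YC-1 and 5609 with DMSO in RBE at 16 h. MBD6 stood at 1051 with YC-1 and 312 with DMSO in SNU1079 at 16 h, and 1701 with YC-1 and 669 with DMSO in RBE at 16 h.

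CEBPB and CEBPG, bZIP partners of ATF4, rose by smaller amounts. CEBPB (ENSG00000172216, chr20:50190734-50192689, plus strand) had 666, 1004 and 626 in SNU1079 with YC-1 for 16 h, against 283, 205 and 167 with DMSO, and 1704, 1261 and 987 with YC-1 for 6 h, against 362, 397 and 354 with DMSO. In RBE it had 611, 659 and 582 with YC-1 for 16 h, against 197, 257 and 202 with DMSO, and 964, 789.6 and 1016 with YC-1 for 6 h, against 313, 241 and 256 with DMSO. The groups were apart each time, and the log2 differences were 1.81 and 1.79 for SNU1079 at 16 h and 6 h, and 1.50 and 1.77 for RBE at 16 h and 6 h (SE 0.21, adjusted p 3.12e-07 to 3.52e-06). CEBPB shares 231 exon bases with an antisense gene, with the same limit on strand. CEBPG (ENSG00000153879, chr19:33373330-33382686, plus strand), a small C/EBP protein that acts by pairing with others, had 1335, 1362 and 1786 in SNU1079 with YC-1 for 16 h, against 688, 996 and 979.7 with DMSO, and 1564, 2489 and 2417 with YC-1 for 6 h, against 1100.0, 1036 and 813 with DMSO. RBE libraries spanned 2944 to 3246 with YC-1 for 16 h, against 1309 to 1362 with DMSO, and 3484 to 3617 with YC-1 for 6 h, against 1485 to 1625 with DMSO. CEBPG rose by 0.76 ± 0.16 in SNU1079 at 16 h (adjusted p = 0.00051), where its size was smallest, by 1.11 in SNU1079 at 6 h, by 1.21 in RBE at 16 h and by 1.20 in RBE at 6 h. The SNU1079 YC-1 6 h replicate 1 library was the lowest of its group for CEBPG and the highest for CEBPB.

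PPP1R15A and TRIB3 act back on the response. PPP1R15A (ENSG00000087074, chr19:48872392-48876057, plus strand) encodes GADD34, which brings protein phosphatase 1 to eIF2 and so reverses its phosphorylation. SNU1079 at 16 h had 6953, 10117 and 7809.9 with YC-1, against 1742, 1591 and 1356 with DMSO (2.40 ± 0.13, adjusted p = 4.37e-12). SNU1079 at 6 h had 9631, 7872 and 7770.1 with YC-1, against 1860.3, 1681 and 1875 with DMSO (2.22 ± 0.13, adjusted p = 4.74e-11). These groups were apart, as were those of RBE. RBE at 16 h had 6139, 6219 and 6973 with YC-1, against 639.9, 585 and 701 with DMSO (3.33 ± 0.13, adjusted p = 2.58e-14). RBE at 6 h had 4159, 4380.0 and 4219 with YC-1, against 739.7, 651 and 643 with DMSO (adjusted p = 3.14e-12). TRIB3 (ENSG00000101255, chr20:362835-397559, plus strand) encodes a pseudokinase that binds ATF4 and CHOP and restrains them. SNU1079 had 4582, 4959 and 2896 with YC-1 for 16 h, against 2369, 1948 and 1693 with DMSO, and 10157, 6036 and 7082 with YC-1 for 6 h, against 2484, 2736 and 3105 with DMSO. RBE had 2597, 2724 and 2943 with YC-1 for 16 h, against 1357, 1712 and 1413 with DMSO, and 3813, 3632 and 3912 with YC-1 for 6 h, against 2168, 1652 and 1858 with DMSO. The groups were apart, with the smallest log2 difference in RBE at 16 h (0.89 ± 0.19, adjusted p = 0.00042) and the largest in SNU1079 at 6 h (1.45 ± 0.19, adjusted p = 4.89e-06). It was 1.02 in SNU1079 at 16 h and 1.01 in RBE at 6 h.

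CHAC1 (ENSG00000128965, chr15:40952962-40956519, plus strand), an enzyme that degrades glutathione, had log2 differences from 1.29 to 4.11. SNU1079 at 16 h had 322, 277 and 269 with YC-1, against 47.3, 49.6 and 55.0 with DMSO (2.49 ± 0.20, adjusted p = 1.73e-09). SNU1079 at 6 h had 1523, 903 and 859.6 with YC-1, against 53.4, 64.8 and 63.2 with DMSO (adjusted p = 4.5e-12). The group means at 6 h differed 18.1-fold, and without YC-1 replicate 1, the highest library, the log2 difference was 3.85. RBE at 16 h had 467, 485 and 574 with YC-1, against 179, 219 and 227 with DMSO (1.29 ± 0.20, adjusted p = 1.37e-05). RBE at 6 h had 1275, 1252 and 1264 with YC-1, against 364, 212 and 309 with DMSO (2.13 ± 0.20, adjusted p = 8.55e-08). YC-1 libraries were above DMSO libraries in both lines at both times.

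SESN2 and DDIT4 encode restraints on the growth kinase complex mTORC1. SESN2 (ENSG00000130766, chr1:28259527-28282491, plus strand), a leucine-binding sestrin, had 864, 829.8 and 704 in SNU1079 with YC-1 for 16 h, against 483, 447 and 373 with DMSO (0.88 ± 0.14, adjusted p = 1.83e-05). SNU1079 at 6 h had 2693, 1907 and 1973 with YC-1, against 561, 465 and 573 with DMSO (2.03 ± 0.14, adjusted p = 9.02e-10). The rise at 6 h was the larger of these. RBE had 1424, 1545 and 1663 with YC-1 for 16 h, against 579, 616 and 625 with DMSO (1.34 ± 0.14, adjusted p = 6.43e-08). RBE at 6 h had 2585, 2451 and 2353 with YC-1, against 805, 601 and 716 with DMSO (1.81 ± 0.14, adjusted p = 6.02e-09). DDIT4 (ENSG00000168209, chr10:72273920-72276036, plus strand), also called REDD1, moved less. SNU1079 had 647, 932 and 516 with YC-1 for 16 h, against 422, 463 and 364 with DMSO (0.71 ± 0.21, adjusted p = 0.00705), and the call was lost without YC-1 replicate 2 (0.48, adjusted p = 0.0627) and with libraries scaled to equal sums (0.35, adjusted p = 0.217). SNU1079 at 6 h had 1028, 537 and 611 with YC-1, against 321, 354 and 413 with DMSO (0.95 ± 0.21, adjusted p = 0.00164). In RBE the groups were apart, at 1269 to 1614 with YC-1 for 16 h, against 586 to 814 with DMSO, and at 1513 to 1636 with YC-1 for 6 h, against 662 to 740.0 with DMSO. Those differences were 0.97 ± 0.21 at 16 h and 1.20 ± 0.21 at 6 h. DDIT4 shares 847 exon bases with DDIT4-AS1 on the opposite strand, whose group means were 591 with YC-1 and 389.7 with DMSO in SNU1079 at 16 h, and 1463 with YC-1 and 686 with DMSO in RBE at 16 h. Reads of this pair cannot be told apart without the strand setting.

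**Figure D3:**
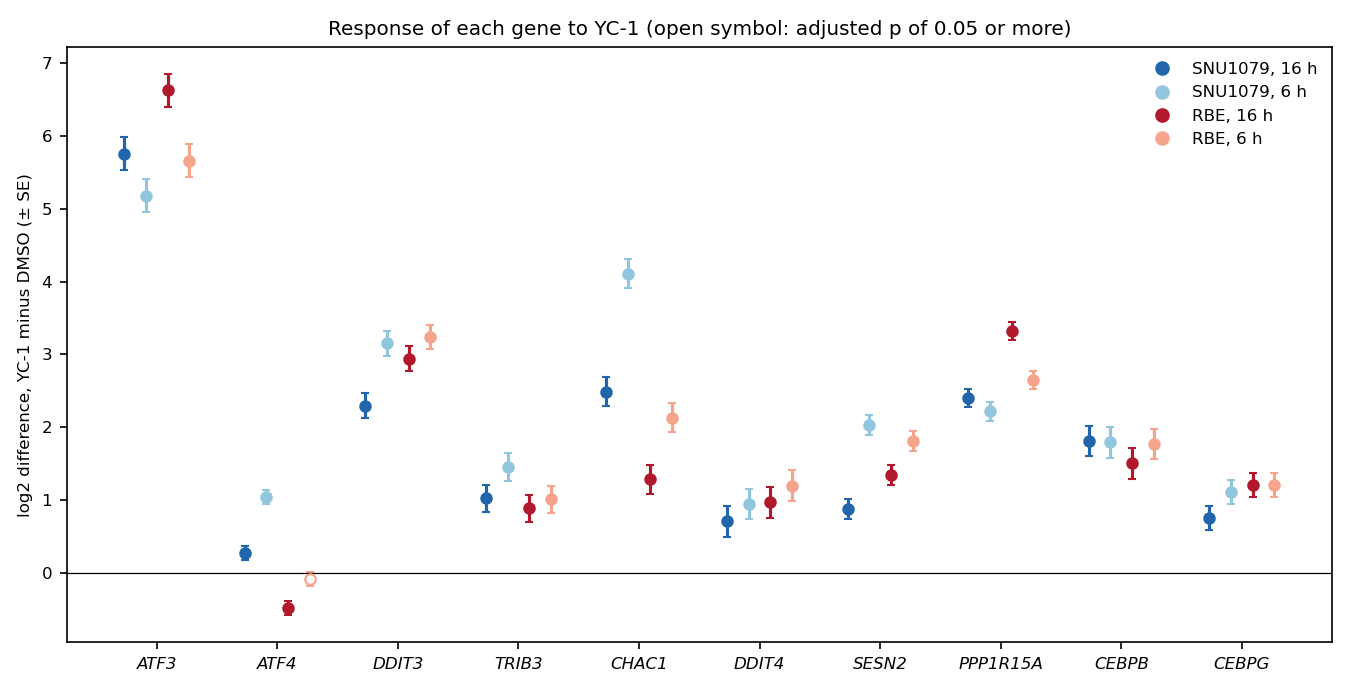
Log2 difference between YC-1 and DMSO for each of the 10 genes, ± SE, in both lines at 16 h and 6 h, with open symbols where the adjusted p was 0.05 or more. ATF3 lies at 5.18 to 6.63, and the open symbol is ATF4 in RBE at 6 h (-0.08).

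The YC-1 effect at 16 h was set against that at 6 h, each measured from DMSO of its own time. Larger and smaller refer to the signed log2 effect here and between lines. For SNU1079, 4 of the 10 genes had a smaller effect at 16 h and 0 a larger one, against 8.53% of all genes smaller, 8.47% larger and 17.0% in either direction. They were CHAC1 (-1.62 ± 0.28, adjusted p = 0.00056), SESN2 (-1.15 ± 0.20, adjusted p = 0.000531), DDIT3 (-0.85 ± 0.24, adjusted p = 0.0173) and ATF4 (-0.77 ± 0.14, adjusted p = 0.0007). For RBE, 2 genes had a larger effect at 16 h and 2 a smaller one, against 8.80% of all genes larger, 9.43% smaller and 18.2% in either direction. ATF3 (0.96 ± 0.32, adjusted p = 0.0395) and PPP1R15A (0.68 ± 0.18, adjusted p = 0.0107) were larger, and CHAC1 (-0.85 ± 0.28, adjusted p = 0.0406) and ATF4 (-0.40 ± 0.14, adjusted p = 0.045) were smaller. The signed difference was thus negative and called for ATF4 and CHAC1 in both lines. For CHAC1 a rise shrank. For ATF4 in RBE the effect went from -0.08 at 6 h, which was not called, to a called fall of -0.49 at 16 h. With only the SNU1079 libraries fitted, the DDIT3 call was lost there (adjusted p = 0.12). Of the 24 single-library removals, 11 ended the RBE call of ATF3, 16 that of ATF4 and 9 that of CHAC1. Scaled to equal sums, ATF3 (0.67, adjusted p = 0.152) and PPP1R15A (0.38, adjusted p = 0.201) both lost their RBE calls. Scaled to ribosomal protein genes, ATF3 fell to 0.16 (adjusted p = 0.75) and PPP1R15A turned to -0.12 (adjusted p = 0.662), while ATF4 (-1.21) and CHAC1 (-1.65) stayed called. With no filter on low genes ATF3 (adjusted p = 0.0678), ATF4 (adjusted p = 0.0848) and CHAC1 (adjusted p = 0.0651) lost theirs, as did ATF3 and ATF4 with no intensity trend and ATF4 and CHAC1 with equal upper quartiles.

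Between lines, differences of the YC-1 effect were called for 3 genes (16 h) and 2 genes (6 h). At 16 h, 2 were larger in SNU1079 and 1 smaller, against 8.17% of all genes larger, 6.43% smaller and 14.6% in either direction. CHAC1 (1.20 ± 0.28, adjusted p = 0.00618) and ATF4 (0.76 ± 0.14, adjusted p = 0.00092) were larger and PPP1R15A (-0.93 ± 0.18, adjusted p = 0.00133) was smaller. For ATF4 the effects at 16 h had opposite signs, at 0.27 in SNU1079 and -0.49 in RBE. The PPP1R15A call was lost with ribosomal protein scaling (-0.57, adjusted p = 0.061). At 6 h, 2 were larger and 0 smaller, against 0.767% of all genes larger, 0.773% smaller and 1.54% in either direction, and they were CHAC1 (1.98 ± 0.28, adjusted p = 0.000431) and ATF4 (1.12 ± 0.14, adjusted p = 9.05e-05). For DDIT3 the difference at 6 h was -0.08 with a 95% interval of -0.58 to 0.41, and for CEBPB it was 0.02 with an interval of -0.59 to 0.63. A p that misses the threshold does not show that the lines respond alike. Without the same 3 SNU1079 libraries, 5 genes were called at 16 h and 3 at 6 h. Calls over all genes also rose in that refit, from 2608 to 4006 at 16 h and from 275 to 1162 at 6 h.

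**Figure D4:**
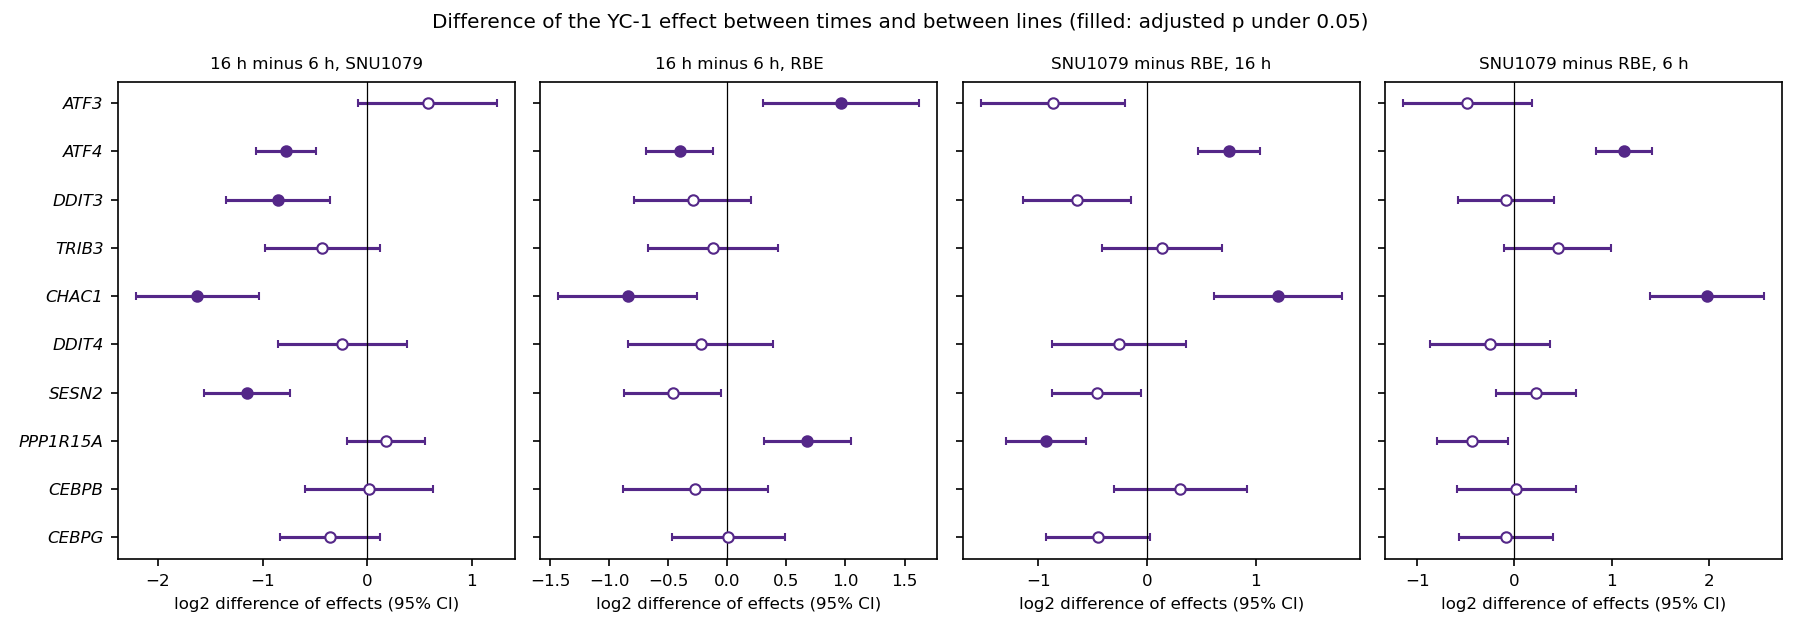
Difference of the YC-1 effect (log2) for each of the 10 genes with its unadjusted 95% confidence interval, between 16 h and 6 h in each line and between SNU1079 and RBE at each time. Filled symbols passed an adjusted p under 0.05; ATF4 and CHAC1 are filled in all 4 panels.

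The lines also differed with DMSO alone. At 16 h, 2 of the 10 genes were higher and 6 lower in SNU1079 than in RBE, against 25.9% of all genes higher, 29.3% lower and 55.1% in either direction. At 6 h, 3 were higher and 6 lower, against 27.2% of all genes higher, 29.2% lower and 56.4% in either direction. CHAC1 with DMSO for 6 h averaged 60.5 ± 6.18 in SNU1079 and 295 ± 77.1 in RBE (SD, n = 3 each), a log2 difference of -2.24 ± 0.20 (adjusted p = 4.37e-09). ATF4 averaged 3449 ± 159.8 in SNU1079 and 6968 ± 432 in RBE (-1.01 ± 0.10, adjusted p = 1.42e-08). PPP1R15A was higher in SNU1079, at 1805 ± 108 against 678 ± 53.7 in RBE (1.41 ± 0.13, adjusted p = 4.2e-09). With YC-1 for 6 h the means lay closer for CHAC1, at 1096 ± 371 in SNU1079 and 1264 ± 11.8 in RBE, and for ATF4, at 7110.4 ± 656 in SNU1079 and 6574 ± 293 in RBE. These comparisons share their DMSO libraries.

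Between 16 h and 6 h with DMSO alone, 1 of the 10 genes was called in SNU1079, against 3.82% of all genes higher, 4.75% lower and 8.57% in either direction. It was CEBPB (-0.80 ± 0.21, adjusted p = 0.0195), at 218 ± 59.1 for 16 h and 371 ± 22.8 for 6 h (SD, n = 3 each). With only the SNU1079 libraries fitted, the CEBPB call was lost (adjusted p = 0.123). Without the same 3 libraries, 4 of the 10 genes were called, and calls over all genes rose from 1530 to 3286. In RBE limma called 0 of the 10, against 0.00560% of all genes higher, 0.0392% lower and 0.0448% in either direction. ATF4 (-0.28 ± 0.10, adjusted p = 0.839) and CHAC1 (-0.47 ± 0.20, with groups that overlapped) were the 2 with an unadjusted p under 0.05 there. In SNU1079, TRIB3 (-0.48 ± 0.19, adjusted p = 0.127) and SESN2 (-0.30 ± 0.14, adjusted p = 0.22) also had an unadjusted p under 0.05 without a call.

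Levels were set side by side per kilobase of annotated exon, counted over all transcripts of a gene. This length can exceed that of the transcripts in use. Whole reads could not be recovered, so the values may carry factors that differ between genes. The order of the genes is therefore only a rough description. With DMSO, ATF4 was the highest of the 10 in all 4 groups, at 1212 ± 79.4 normalised counts per kilobase in SNU1079 and 2275 ± 48.6 in RBE at 16 h (SD, n = 3 each). ATF3 was 9th in SNU1079 (79.4 ± 27.5) and 10th in RBE (43.2 ± 17.2) in those DMSO groups. With YC-1 for 16 h, ATF3 was the highest in both lines, at 4167 ± 759.5 in SNU1079 and 4085 ± 238 in RBE, followed by PPP1R15A at 2681 ± 529 and 2083 ± 149. With YC-1 for 6 h, ATF4 (2828 ± 261), ATF3 (2754 ± 138) and PPP1R15A (2724 ± 338) led in SNU1079 within each other's spread, and DDIT3 (2713 ± 137) and ATF4 (2615 ± 117) led in RBE, also within their spread. CHAC1 was the lowest of the 10 with YC-1 for 16 h in both lines, at 141 ± 13.9 in SNU1079 and 247 ± 27.9 in RBE.

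Across the 24 libraries, with each line centred on its own mean, ATF3 and PPP1R15A had the highest Pearson r of all pairs among the 10 genes (0.988). ATF4 was least like PPP1R15A (0.125) and ATF3 (0.134) and most like CHAC1 (0.667). These values follow the treatment groups and share libraries, so they are descriptions. Of 12582 other genes with a group mean of at least 100, those most like ATF3 were ZNF425 (0.992), RND1 (0.990), FAM220A (0.988), SLC41A1 (0.987), CDC37L1 (0.984). Those most like DDIT3 were FAM53C (0.983), CHMP1B (0.979), BTG2 (0.974), IER3-AS1 (0.972), ZNF317 (0.972). For ATF4 the closest were ATG16L1 (0.868), SPRY2 (0.867), ZFP36L2 (0.850), ETV5 (0.842), PPP4R3A (0.841).

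Genes upstream of ATF4 moved in both directions. Of 18 (eIF2 kinases and their regulators, eIF2 and eIF2B subunits, phosphatase subunits and mitochondrial relays), 8 rose and 6 fell in SNU1079 at 16 h, 4 rose and 3 fell in SNU1079 at 6 h, 9 rose and 5 fell in RBE at 16 h, and 3 rose and 1 fell in RBE at 6 h. The shares called in either direction, in that order, were 77.8% beside 54.5% of all genes, 38.9% beside 28.2%, 77.8% beside 53.9% and 22.2% beside 24.0%, so the count in RBE at 6 h was near that of all genes. Of the 18, 44.4% rose beside 28.7% of all genes, 22.2% beside 14.0%, 50% beside 27.3% and 16.7% beside 11.6%. In the same order 33.3% fell beside 25.8%, 16.7% beside 14.2%, 27.8% beside 26.6% and 5.56% beside 12.4%. Their median log2 differences were 0.19, 0.03, 0.16 and 0.14 in that order, beside the medians of all genes given above. EIF2AK4, which encodes the amino acid sensor GCN2, fell in all 4 comparisons, by 1.08 ± 0.14 in SNU1079 at 16 h and 0.80 ± 0.14 in RBE at 16 h. OMA1, a mitochondrial protease that relays stress, differed at 16 h by -1.09 ± 0.28 in SNU1079 and -1.28 ± 0.28 in RBE, and EIF2AK3, the endoplasmic reticulum kinase PERK, by -0.74 ± 0.19 and -1.15 ± 0.19. GCN1, an activator of GCN2, differed in SNU1079 at 6 h (-0.69 ± 0.13). The eIF2B subunit gene EIF2B2 rose in all 4 comparisons (1.16 ± 0.08 in SNU1079 and 1.03 ± 0.08 in RBE at 16 h), as did EIF2B1 (0.92 ± 0.09 in RBE at 16 h). EIF2S2, a subunit of eIF2, rose in SNU1079 (16 h, 1.12 ± 0.12; 6 h, 0.74 ± 0.12), EIF2B4 rose by 0.40 ± 0.13 in SNU1079 at 6 h, and EIF2AK1, the haem-regulated kinase, by 0.26 ± 0.09 in RBE at 6 h.

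Genes known as targets of ATF4 or CHOP mostly rose. Of 28 tested, 19 rose and 3 fell in SNU1079 at 16 h, 17 rose and 1 fell in SNU1079 at 6 h, 16 rose and 4 fell in RBE at 16 h, and 19 rose and 0 fell in RBE at 6 h. The shares that rose, in that order, were 67.9% beside 28.7% of all genes, 60.7% beside 14.0%, 57.1% beside 27.3% and 67.9% beside 11.6%, and the shares that fell 10.7% beside 25.8%, 3.57% beside 14.2%, 14.3% beside 26.6% and 0% beside 12.4%. The medians were 1.34, 0.97, 0.57 and 0.98 in that order. PMAIP1, which encodes the pro-apoptotic protein NOXA, rose by 4.65 ± 0.21 in SNU1079 at 16 h, 3.72 ± 0.21 in SNU1079 at 6 h and 3.36 ± 0.21 in RBE at 16 h. GDF15, a secreted stress cytokine, led in RBE, at 3.71 ± 0.27 for 16 h and 3.16 ± 0.27 for 6 h. PCK2, the mitochondrial phosphoenolpyruvate carboxykinase, rose in SNU1079 (3.57 ± 0.17 for 16 h and 3.14 ± 0.17 for 6 h), and STC2, a secreted glycoprotein, by 2.79 ± 0.70 in RBE at 6 h. VLDLR, a lipoprotein receptor, differed at 16 h by -2.55 ± 0.14 in SNU1079 and -1.83 ± 0.14 in RBE, and at 6 h in SNU1079 by -0.43 ± 0.14. SLC38A2, an amino acid transporter, differed at 16 h by -1.11 ± 0.17 in SNU1079 and -1.20 ± 0.17 in RBE. The other targets that fell were KLHL24 at 16 h in both lines and ATF5 in RBE at 16 h, named here after their values were seen. The smallest rises in RBE at 6 h were those of PSAT1 (0.31 ± 0.10), a serine synthesis enzyme, and SLC7A1 (0.35 ± 0.08), which was also the smallest in SNU1079 at 6 h (0.60 ± 0.08).

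Counted in either direction, relatives of the 10 genes were called about as often as other genes in 3 of the 4 comparisons. Of 18 tested, 4 rose and 5 fell in SNU1079 at 16 h, 5 rose and 3 fell in SNU1079 at 6 h, 1 rose and 8 fell in RBE at 16 h, and 1 rose and 3 fell in RBE at 6 h (medians -0.02, 0.05, -0.47 and -0.16). The shares called in either direction, in that order, were 50% beside 54.5% of all genes, 44.4% beside 28.2%, 50% beside 53.9% and 22.2% beside 24.0%. The shares that rose were 22.2% beside 28.7%, 27.8% beside 14.0%, 5.56% beside 27.3% and 5.56% beside 11.6%. Those that fell were 27.8% beside 25.8%, 16.7% beside 14.2%, 44.4% beside 26.6% and 16.7% beside 12.4%. TRIB2, a pseudokinase like TRIB3, averaged 23.5 ± 6.24 with YC-1 and 113 ± 40.4 with DMSO in SNU1079 at 16 h, and fell in all 4 comparisons (log2 differences -2.17, -1.22, -2.25 and -1.05 in the same order). TRIB1 fell in 3 and stood at -0.38 ± 0.17 in RBE at 6 h (adjusted p = 0.123). PPP1R15B, the constitutive phosphatase partner, differed at 16 h by -0.39 ± 0.13 in SNU1079 and -0.67 ± 0.13 in RBE, where PPP1R15A rose. CHAC2 was not called in either line at either time (0.16 to 0.52). SESN1 rose in RBE, by 1.54 ± 0.16 at 16 h and 0.85 ± 0.16 at 6 h, and SESN3 rose in SNU1079 at 6 h (1.03 ± 0.27). DDIT4L differed in RBE at 16 h (-1.30 ± 0.44). ATF6, a sensor of the unfolded protein response, fell in all 4 comparisons, with -1.05 ± 0.16 in SNU1079 at 16 h, and ATF2 fell at 16 h in both lines. ATF1 rose in SNU1079 (0.50 ± 0.13 at 16 h and 0.54 ± 0.13 at 6 h), ATF6B in SNU1079 at 16 h (0.33 ± 0.13) and JDP2 in SNU1079 at 6 h (1.04 ± 0.21). BATF2 rose in SNU1079 (1.32 ± 0.35 at 16 h and 1.01 ± 0.35 at 6 h) and fell in RBE (-0.85 ± 0.35 at 16 h and -1.07 ± 0.35 at 6 h). CEBPA rose in SNU1079 at 16 h with a wide error (2.90 ± 1.11, adjusted p = 0.0319), at 31.0 ± 38.5 with YC-1 and 5.59 ± 9.68 with DMSO with groups that overlapped, and CEBPD rose in SNU1079 at 6 h (0.94 ± 0.32). ATF7 and BATF3 were called neither in SNU1079 nor in RBE.

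**Figure D5:**
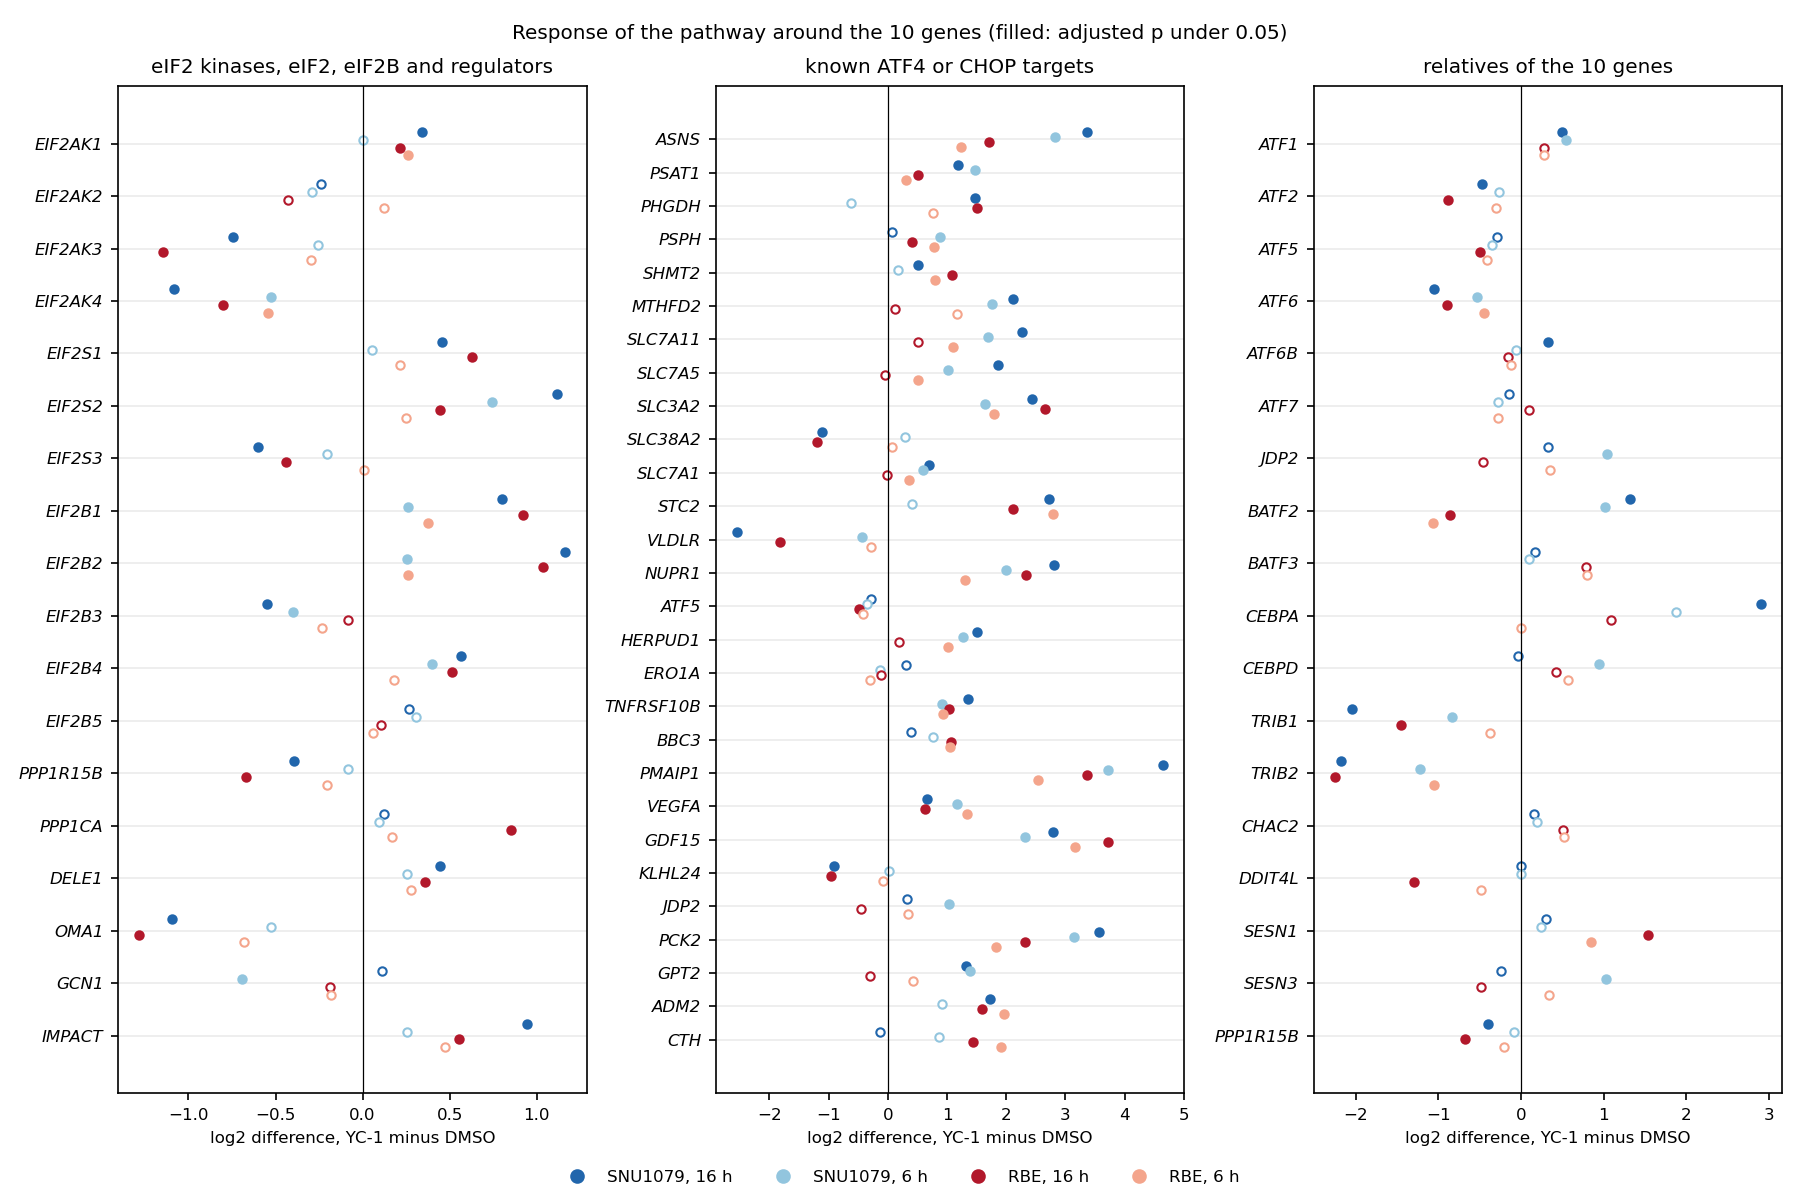
Log2 difference between YC-1 and DMSO of 18 upstream genes, 28 targets and 18 relatives in both lines at 16 h and 6 h, filled where the adjusted p was under 0.05. Targets lie mostly right of 0 and TRIB1, TRIB2 and ATF6 left of it; ATF5 and JDP2 stand in the target and relative lists, and PPP1R15B in the upstream and relative lists.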

How the data were processed

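Messenger RNA libraries were made with a stranded poly(A) kit, per the labels' protocols. The values are a normalised count signal that the authors deposited as 1 table, and the submitters' processing notes name STAR, DESeq2 and hg38, with no versions. Whole reads could not be recovered from these values, so no count test was run and sequencing depth is unknown. Sample titles gave line, treatment, time and replicate.

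Genes with a normalised count of at least 10 in at least 3 libraries were tested (17860). limma 3.58.1 in R 4.3.3 fitted log2(normalised count + 1) with 1 mean for each of 8 groups over 24 libraries and an intensity trend, leaving 16 residual degrees of freedom. Each gene thus has the same SE in both lines. Deviations from group means were 0.33 to 0.59 in SNU1079 libraries and 0.27 to 0.40 in RBE libraries. With each line fitted alone, calls over all genes at 6 h were 3299 instead of 5042 in SNU1079 and 6874 instead of 4290 in RBE. The 12 comparisons were each adjusted by Benjamini-Hochberg over all genes tested at 0.05. On simulated data made from the RBE 6 h comparison (17648 genes), 65% of 100 genes changed by 1 on the log2 scale and 92% of 100 changed by 2 were recovered, and 4.85% of 165 calls were false. Only those genes, drawn above a minimum mean level, were changed there. The noise was Gaussian, with the same SD of a gene in all groups. In the real comparison 24.0% of genes were called, so these shares need not hold for it or for SNU1079. Gene positions came from GENCODE 29, promoters from RefSeq, and plots used Python 3.11.15 and matplotlib 3.10.9.

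Alternatives covered the pseudocount, filter, scaling, variance model, libraries fitted, pooled times, replicate block and each library left out. Library weights and leaving out 3 SNU1079 libraries that stood apart were added after seeing the data. The 10 genes and the lists of upstream genes, targets and relatives were chosen with earlier results of these data known. Named from each list were the 2 highest and 2 lowest fold changes among genes called in each comparison of YC-1 with DMSO, each relative in the family of one of the 10 genes, and the 5 genes most like ATF3, ATF4 and DDIT3.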

Additional observations from a re-analysis of the deposited data

Results flagged for a closer look

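Differences of the YC-1 effect between times or lines passed limma's test of the difference itself for 13 values (Benjamini-Hochberg adjusted p under 0.05). Of all genes, 17.0% passed between times in SNU1079 and 18.2% in RBE. Between lines, 14.6% of all genes passed at 16 h and 1.54% at 6 h. ATF4 did so 4 times. Its signed log2 effect was 0.76 higher in SNU1079 than in RBE at 16 h and 1.12 higher at 6 h. Between 16 h and 6 h it differed by -0.77 in SNU1079 and -0.40 in RBE. CHAC1 did so 4 times, with 1.20 between SNU1079 and RBE at 16 h, 1.98 at 6 h, and -1.62 in SNU1079 and -0.85 in RBE between 16 h and 6 h. PPP1R15A differed by -0.93 between SNU1079 and RBE at 16 h and by 0.68 between 16 h and 6 h in RBE. The effect on ATF3 in RBE was 0.96 larger at 16 h than at 6 h. In SNU1079 the effects on SESN2 and DDIT3 differed by -1.15 and -0.85 between 16 h and 6 h. Of 38 refits, 20 lost the call of ATF4 between times in RBE, 16 that of ATF3 and 12 that of CHAC1. For PPP1R15A there, 1 refit lost the call and 1 turned the sign. The DDIT3 call in SNU1079 was lost in 2.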

How the results depend on the processing

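For the 40 differences of the 10 genes between YC-1 and DMSO, 1543 of 1560 refits kept direction and call, 15 lost the call, and 2 turned sign, both of ATF4 in SNU1079 at 16 h (-0.094 with equal sums and -0.19 with ribosomal protein scaling). Those scalings moved the median of all genes at 16 h by -0.36 and -0.46 in SNU1079 and by -0.33 and -0.82 in RBE. Rescaling moves every gene of a library alike, so changes relative to these medians are those reported, by construction. Leaving out a library outside the 2 groups compared keeps the log2 difference, also by construction. Such refits can lose a call but cannot turn a sign, so the number that kept direction says little. The pooled fit gives 1 value per line, which was counted at both times. With ribosomal protein scaling 6 of the 10 genes were called in RBE at 16 h, ATF4 among them as a fall (-1.31). Calls over all genes in RBE at 16 h were 8282 to 11918 over all refits. The difference of PPP1R15A between times in RBE was -0.12 with ribosomal protein scaling. The number of the 10 genes called between times in RBE (4) was 1 with no filter, 2 with equal upper quartiles, 7 with ribosomal protein scaling (ATF4 and CHAC1 among them, with DDIT3, TRIB3, DDIT4, SESN2 and CEBPB newly called smaller at 16 h and ATF3 and PPP1R15A lost), 2 with no intensity trend, 1 with the replicate block and 1 to 4 with single libraries left out. Over all genes, ribosomal protein scaling gave 7412 calls between times in RBE, against 3256 in the main fit. Between lines at 16 h (3 called), library weights gave 5 and leaving out the 3 SNU1079 libraries gave 5. Over all genes these 2 refits gave 4867 and 4006 calls, against 2608. With DMSO alone between times, library weights gave 1 in RBE (0 called), and in SNU1079 (1 called) the number was 2 with ribosomal protein scaling, 0 with only that line fitted, 3 with library weights, 4 without the 3 libraries, and 0 to 1 with single libraries left out. Over all genes, library weights gave 299 calls in RBE, against 8 in the main fit. In SNU1079 the first 4 of those settings gave 908, 409, 4494 and 3286 calls over all genes, in that order, against 1530. The cause was not tested. Counts over all genes moved by more than 1.5 times in 8 comparisons: YC-1 against DMSO gave 5042 calls in SNU1079 at 6 h (3299 to 8465) and 4290 in RBE at 6 h (3329 to 8282), differences between times 3036 in SNU1079 (901 to 6301) and 3256 in RBE (2212 to 7412), differences between lines 2608 at 16 h (1633 to 4867) and 275 at 6 h (191 to 2590), and DMSO between times 1530 in SNU1079 (409 to 4494) and 8 in RBE (4 to 299). Libraries with the same replicate number shared little of their deviation from group means. Of 12 same-number pairs, 1 correlated above 0.1 (-0.15 to 0.19), and 2 libraries correlated best with their own number. This check cannot tell whether the cultures were set up in pairs. The block could not be fitted for DMSO between lines. Sequencing depth is unknown, so no counting error was given.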
